A study of Mus musculus with 6 samples.

Results

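The T cell receptor signalling genes were a list of 36 genes that carry the signal from the antigen receptor to the nucleus, from the receptor's own chains to the enzymes and brakes beneath it. A gene was taken where a probe set of the array carried its symbol alone, and where several did the one with the highest mean over the 6 arrays was used. This gave 34 of the 36 genes, out of 22180 genes in the whole series, and Cd247 and Lck were not analysed here. Naive CD8+ T cells from mouse spleen had been sorted and stimulated with antibodies to CD3 (1 µg/ml) and CD28 (3 µg/ml) over 4 days. Cultures called Tc1 contained IL-12 for 3 days and cultures called Tc17 contained IL-6 and TGF-beta for 3 days, and all of them then received IL-2. No genotype, strain, age or sex is given in the sources used here, and all cultures shared the receptor stimulation. The labels do not say whether the samples of a group came from separate animals, so p-values measure the spread between these samples, which may be technical. Each group had 2 biological samples and 1 technical array, read as a repeat of sample 2 and averaged with it.

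When the receptor binds its ligand, the kinases LCK and FYN phosphorylate the CD3 and zeta chains, ZAP-70 docks on them and phosphorylates the adaptors LAT and SLP-76, and Tec family kinases then activate phospholipase C-gamma. That enzyme makes inositol trisphosphate, which releases calcium and switches on NFAT through calcineurin, and diacylglycerol, which recruits RasGRP1 towards the ERK pathway and protein kinase C-theta towards BCL10, MALT1 and NF-kappaB. Phosphatases, the ubiquitin ligase CBL-B, the receptors CD5 and CD6 and the diacylglycerol kinases damp the signal.

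Malt1 was the member that passed the test, and it rose in Tc17. Of the 34 members 1 passed limma's moderated test at an adjusted p of 0.05 in the higher direction and 0 in the lower. Over all 41345 probe sets the same rule called 0.636% higher and 0.375% lower, 1.01% together, and 2.54% in either direction among the 6740 genes at least as bright as the dimmest member, and a share of 1 in 34 is near that of the bright genes. At an unadjusted p under 0.05 there were 12 members, 6 in each direction, against 7.35% of probe sets higher, 5.91% lower and 13.3% together and 24.5% of the bright genes. The median log2 difference of the members was −0.03, beside −0.02 over all probe sets and −8.75e-05 over the bright genes. Of the members 12 lay above 0 and 22 below, against 3369 and 3371 of the bright genes. The members ran from −0.64 (Rasgrp1) to 0.70 (Tec). A difference over 0.5 in size on the log2 scale was measured for 4 members (Tec, Malt1, Txk and Rasgrp1), against 5.28% of probe sets and 9.23% of the bright genes, and 13 members lay within 0.1 of zero.

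The values were log2 intensities with array medians from 6.04 to 6.09, and every member lay above these on every array, the lowest value being 8.38 (Sh2d1a in Tc1 sample 1). The number of arrays limits the precision of every difference. Between the samples of a group the members differed by a median of 0.09 in Tc1 and 0.07 in Tc17 on the log2 scale, and between both arrays of sample 2 by 0.03 and 0.04. The median size of the group difference was 0.13, beside 0.14 for the genes at least as bright as the dimmest member. The group difference exceeded the difference between samples in both groups in 20 of 34 members, against 3056 of 6740 of these bright genes. The bright genes are not matched to the members in level, and both arrays of sample 2 differed more in them (median 0.05 in Tc1 and 0.06 in Tc17). Of 7 measured markers of macrophages and monocytes 6 had differences above 0, and Lyz2 rose from between 5.21 and 5.68 to between 8.74 and 9.18. The mean level of these 7 markers ran from 6.10 to 6.29 in Tc1 and from 6.71 to 6.87 in Tc17, and it includes Lyz2, whose difference was 3.53. The other markers of this list had differences from −0.14 (Cd68, the brightest of them) to 0.38 (Adgre1). At an unadjusted limma p under 0.05 there were 4 of the 7, against 13.3% of probe sets. These were Lyz2, Csf1r (0.28), Adgre1 and Cd14 (0.25), with all Tc17 arrays higher, and the arrays of Itgam, Cd68 and Fcgr1 overlapped. Csf1r lay between 6.24 and 6.63, above the array medians. Adgre1, Cd14 and Fcgr1 stayed under all array medians. No measured marker of B cells, CD4+ T cells, dendritic cells, NK cells or erythroid cells passed limma's test, and Cd79b (0.52) and Tyrobp (0.49) had differences with an unadjusted p under 0.05. The part of these markers in the differences below was not tested.

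**Figure D1:**
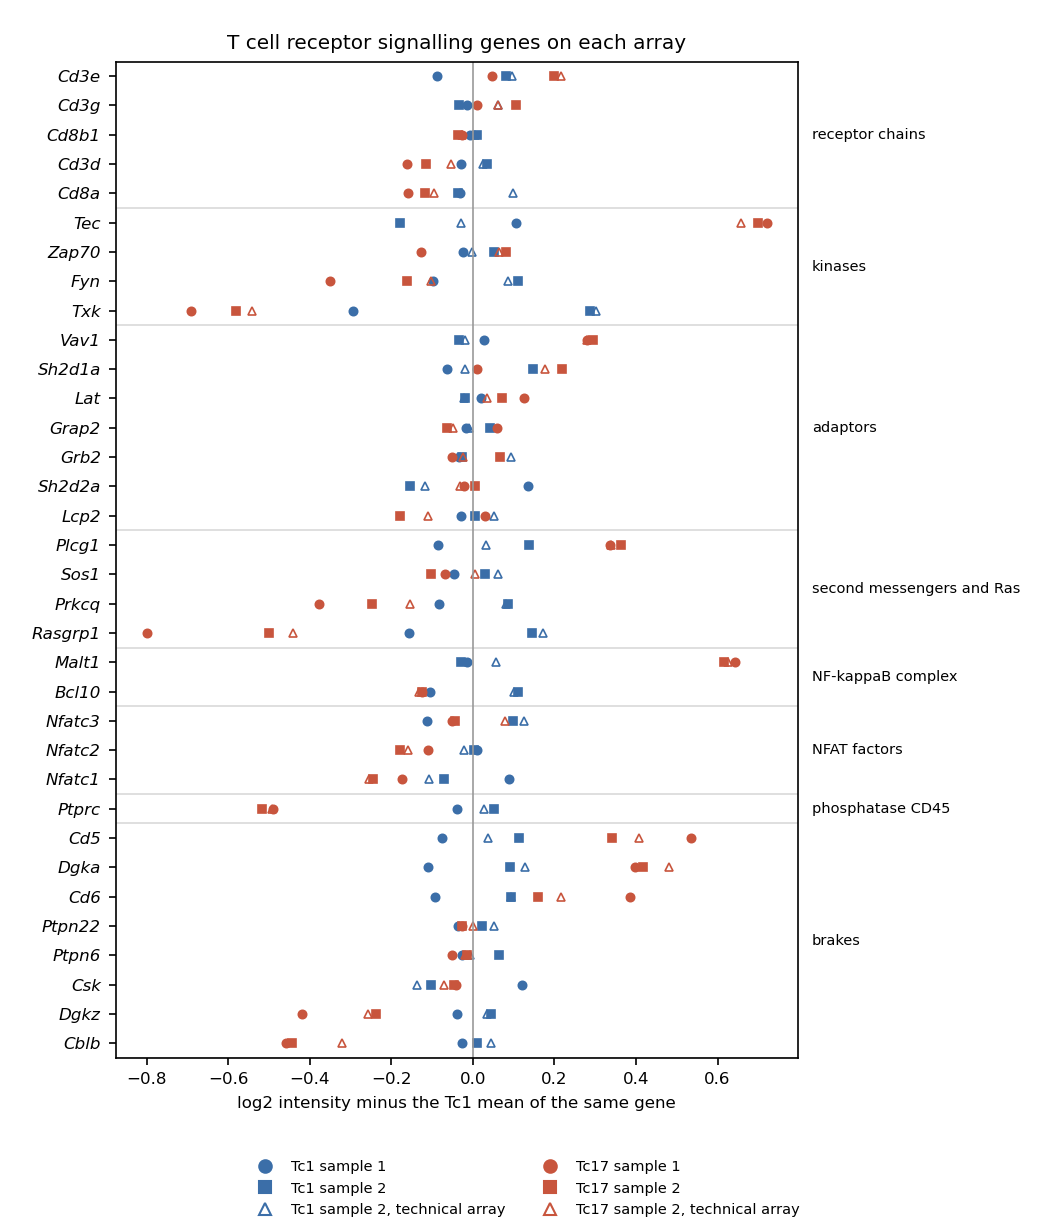
The x axis gives the log2 intensity of each of 34 members minus its own Tc1 mean, with 1 point per array, and rows are ordered by role. Tc17 points of Tec, Malt1, Vav1, Plcg1, Cd5, Dgka, Cd6 and Lat lie to the right of all Tc1 points, and those of 13 members such as Rasgrp1, Txk and Ptprc lie to the left. Such separation in either direction held for 21 of 34 members, 45% of the bright genes and 23.7% of all probe sets.

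The antigen receptor and coreceptor chains had small differences, and none of the 5 passed limma's test. At an unadjusted p under 0.05 there were 0, against 13.3% of probe sets and 24.5% of bright genes. In what follows the arrays of a group are given in the order sample 1, sample 2 and technical array of sample 2. Cd8a, the alpha chain of the coreceptor that binds MHC class I, measured 12.88, 12.87 and 13.01 in Tc1 and 12.75, 12.79 and 12.82 in Tc17 (log2 intensity). Its partner Cd8b1 measured 12.83, 12.85 and 12.84 in Tc1 and 12.81, 12.80 and 12.81 in Tc17. The arrays of the groups did not overlap in either chain, but the differences were −0.13 and −0.03, with 95% intervals of −0.33 to 0.07 and −0.22 to 0.16. The labelled CD8+ cell type was checked on the CD3 and CD8 chains together with Cd2 and Runx3, and the lowest value of these 7 markers on any array was 10.59.

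The CD3 chains carry the receptor's signal across the membrane. Cd3e measured 12.83, 13.00 and 13.02 in Tc1 and 12.97, 13.12 and 13.14 in Tc17, so its arrays overlapped between groups. Cd3g measured 12.81, 12.79 and 12.88 in Tc1 and 12.83, 12.93 and 12.88 in Tc17, again with overlap. For Cd3d the values were 11.75, 11.82 and 11.81 in Tc1 and 11.62, 11.67 and 11.73 in Tc17, all Tc17 arrays being lower. The log2 differences were 0.13 (95% interval −0.15 to 0.40), 0.05 (−0.15 to 0.25) and −0.12 (−0.33 to 0.08). With samples left out in turn that of Cd3e was 0.04 without Tc1 replicate 1, 0.22 without Tc1 replicate 2, 0.21 without Tc17 replicate 1 and 0.05 without Tc17 replicate 2. In bulk samples such as these, fewer cells of a type and less RNA per cell cannot be told apart.

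Among the kinases the Tec family members Tec and Txk had differences of opposite sign. Both encode tyrosine kinases that act on phospholipase C-gamma, and in the mouse they are neighbours on chromosome 5 with 0 protein-coding genes between them. Tec measured 10.09, 9.81 and 9.96 in Tc1 and 10.71, 10.69 and 10.65 in Tc17. Txk, also called Rlk, measured 9.96, 10.54 and 10.55 in Tc1 and 9.56, 9.67 and 9.71 in Tc17. In both genes the arrays of the groups did not overlap, which held for 21 of 34 members, for 45% of the bright genes and for 23.7% of all probe sets. The difference of Tec was 0.70 ± 0.10 (SE, n = 2 samples per group, limma adjusted p = 0.0746), the largest of the members. For Txk it was −0.63 ± 0.21 (SE, n = 2, limma adjusted p = 0.322), and Tc1 sample 1 lay closer to the Tc17 arrays than to Tc1 sample 2. Without Tc1 replicate 1 and without Tc1 replicate 2 the difference of Txk was −0.92 and −0.33. Taken within an array, log2 Tec minus log2 Txk was 0.43, −0.43 and −0.29 in Tc1 and 1.45, 1.32 and 1.24 in Tc17, relative to the mean of the biological Tc1 arrays. As all Tc17 arrays were higher for Tec and lower for Txk, this contrast had to separate the groups. It restates the differences of both genes and is no further support.

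Neither gene passed at a threshold of 0.05 over all probe sets. Tec passed in 8 of 17 other settings, with limma adjusted p from 0.0043 to 0.47 over all settings. Among the 8 were only brighter probe sets (0.0484) and an adjustment over 1 probe set per gene (0.0258), added after the results were seen. The 8 also include a looser threshold of 0.10 on the same p and both settings that fit 6 arrays. With samples left out in turn the difference of Tec ran from 0.60 to 0.80. Fyn, a Src family kinase that phosphorylates the receptor chains, measured 10.95, 11.15 and 11.13 in Tc1 and 10.69, 10.88 and 10.94 in Tc17, a difference of −0.24 ± 0.12 (SE) that did not pass. The groups of Fyn were separated by the narrow step from 10.95 to 10.94, and its difference was −0.14 without Tc1 replicate 2 and −0.13 without Tc17 replicate 1. Zap70, the kinase that docks on the phosphorylated chains, had a difference of −0.03 (95% interval −0.29 to 0.23), and its arrays overlapped.

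The sequence before the start of transcription is shown for the neighbours Tec and Txk, whose differences had opposite signs, and for Rasgrp1 and Cd5, members with differences among the larger ones whose windows were listed. Each is the 250 bases before the start given by RefSeq on GRCm38.p6 (for Txk the outermost of 2 listed starts), read on the gene's strand, the minus strand for all 4. The windows are chr5:72868449-72868698 for Tec, chr5:72752778-72753027 for Txk, chr2:117342878-117343127 for Rasgrp1 and chr19:10738975-10739224 for Cd5. Capitals mark matches on either strand to the motifs TTCNNNGAA (STAT), TGTGGT (RUNX), CCGGAAG (ETS), GGAAAA (NFAT) and CAGACA (SMAD).
Tec: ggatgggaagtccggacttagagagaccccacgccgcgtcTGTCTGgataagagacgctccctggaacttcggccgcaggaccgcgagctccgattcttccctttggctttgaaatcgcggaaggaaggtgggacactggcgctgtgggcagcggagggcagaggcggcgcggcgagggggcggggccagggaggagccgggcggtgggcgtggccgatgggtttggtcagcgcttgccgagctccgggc
Txk: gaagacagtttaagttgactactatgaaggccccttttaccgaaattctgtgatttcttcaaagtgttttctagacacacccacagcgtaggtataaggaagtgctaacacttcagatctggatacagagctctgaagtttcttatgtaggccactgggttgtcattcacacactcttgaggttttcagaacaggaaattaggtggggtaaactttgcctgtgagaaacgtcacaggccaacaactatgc
Rasgrp1: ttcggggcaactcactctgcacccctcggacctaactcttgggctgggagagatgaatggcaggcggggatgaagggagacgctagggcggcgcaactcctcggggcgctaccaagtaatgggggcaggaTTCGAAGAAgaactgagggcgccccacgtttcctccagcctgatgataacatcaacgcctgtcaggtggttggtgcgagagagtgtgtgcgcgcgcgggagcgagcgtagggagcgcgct
Cd5: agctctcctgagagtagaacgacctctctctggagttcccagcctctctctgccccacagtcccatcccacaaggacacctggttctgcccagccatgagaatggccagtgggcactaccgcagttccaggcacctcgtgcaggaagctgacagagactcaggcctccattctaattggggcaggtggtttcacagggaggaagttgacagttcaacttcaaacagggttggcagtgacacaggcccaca

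Tec held 1 match to the SMAD motif, 210 to 205 bases before its start, and Rasgrp1 held 1 match to the STAT motif, 120 to 112 bases before its start. Neither match overlapped another, and the windows of Txk and Cd5 held no match, which says only that these letters are not in these windows. Tec's window was 68.4% G and C and that of Txk 42.8%. Among 32851 RefSeq windows of the same length 17.1% held the SMAD motif, 7.02% the STAT motif, 20.4% the NFAT motif, 14% the RUNX motif and 6.91% the ETS motif. Of the 28 measured members with a window, 5 held the SMAD motif, 2 the STAT motif, 7 the NFAT motif, 1 the RUNX motif and 0 the ETS motif. A match is a description of the letters and not a site.

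The adaptors that assemble the signalling complex had the smallest median size of difference of the functional groups, 0.06 on the log2 scale. None of the 7 passed limma's test, and 1 had an unadjusted p under 0.05, against 13.3% of probe sets and 24.5% of bright genes. Vav1, an adaptor and exchange factor for Rac that works on the cytoskeleton, measured 11.09, 11.03 and 11.04 in Tc1 and 11.34, 11.36 and 11.34 in Tc17. All Tc17 arrays of Vav1 were higher, and the difference was 0.28 ± 0.07 (SE, n = 2, limma adjusted p = 0.223), or 1.22-fold. Lat, the membrane scaffold phosphorylated by ZAP-70, had a difference of 0.09 (95% interval −0.11 to 0.29) and non-overlapping arrays. Lcp2 (SLP-76), Grap2 (GADS, which joins SLP-76 to LAT), Grb2 (the adaptor of SOS), Sh2d1a (SAP, the adaptor of SLAM receptors) and Sh2d2a (the adaptor TSAd, a partner of LCK) ran from −0.06 to 0.10. Their arrays overlapped between the groups. The intervals of these 5 genes lay between −0.32 and 0.38 on the log2 scale.

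Enzymes that make or read the second messengers differed in sign. Plcg1, which encodes phospholipase C-gamma itself, measured 10.71, 10.93 and 10.82 in Tc1 and 11.13, 11.15 and 11.13 in Tc17. Rasgrp1, the diacylglycerol-dependent activator of Ras, measured 11.63, 11.94 and 11.96 in Tc1 and 10.99, 11.29 and 11.35 in Tc17. Prkcq, protein kinase C-theta, measured 11.75, 11.92 and 11.91 in Tc1 and 11.45, 11.58 and 11.68 in Tc17. All Tc17 arrays were higher for Plcg1 and lower for the diacylglycerol-regulated proteins Rasgrp1 and Prkcq. The difference of Rasgrp1, −0.64 ± 0.17 (SE, n = 2, limma adjusted p = 0.229), was the lowest of the list, a ratio of 1.55-fold. In each group its sample 1 lay below sample 2 by a like amount, 0.32 in Tc1 and 0.33 in Tc17. Rasgrp1 passed in 4 of 17 other settings (limma adjusted p from 0.0259 to 0.611 over all of them). Differences of 0.34 ± 0.09 for Plcg1 (SE, limma adjusted p = 0.23) and −0.29 ± 0.11 for Prkcq (SE, limma adjusted p = 0.364) did not pass, nor did that of Sos1, the other Ras activator (−0.06).

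**Figure D2:**
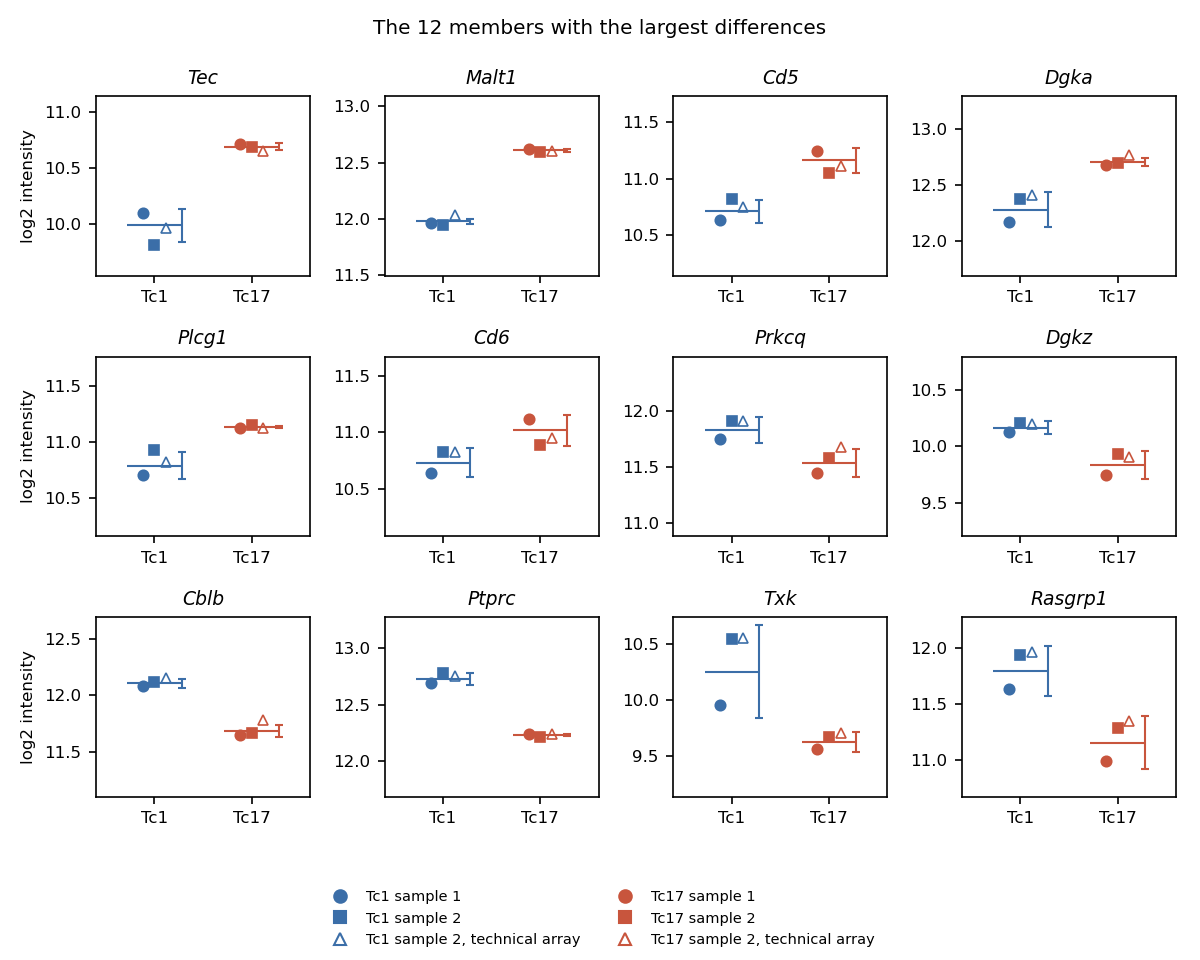
Each panel plots the log2 intensity of 1 of the 12 members with the largest differences in Tc1 and Tc17, with a point per array, a line at the mean of 2 samples and a bar of 1 SD, on axes of equal span. Malt1 and Ptprc show tight groups that lie apart, and in Txk and Rasgrp1 sample 1 lies below sample 2.

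Malt1 and Bcl10 encode partner proteins on the way from protein kinase C-theta to NF-kappaB, MALT1 being also a protease. Malt1 measured 11.96, 11.95 and 12.03 in Tc1 and 12.62, 12.59 and 12.60 in Tc17, with every Tc17 array above every Tc1 array. It rose from 11.98 ± 0.02 to 12.61 ± 0.02 (log2, SD, n = 2), a difference of 0.63 ± 0.07 (SE, limma adjusted p = 0.0479) or 1.55-fold. The size of the difference ran from 0.62 to 0.67 over 17 other settings, several of which change the p-value and cannot change the difference. The call was close to the threshold. It ended with the technical array left out (limma adjusted p = 0.0597), with median centring (0.0522) and without moderation (0.357), in a range of 0.00163 to 0.357 over all settings. It also ended when a sample was left out, with limma adjusted p of 0.2 and 0.175 without Tc1 samples 1 and 2 and of 0.261 and 0.197 without Tc17 samples 1 and 2. Bcl10 had a difference of −0.13 (95% interval −0.39 to 0.13), with lower arrays in Tc17, and one of −0.23 without Tc1 replicate 1 and −0.02 without Tc1 replicate 2.

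The NFAT genes encode the factors that calcineurin sends to the nucleus, and none of the 3 passed limma's test. At an unadjusted p under 0.05 there were 0, against 13.3% of probe sets and 24.5% of bright genes. Nfatc1 measured 10.66, 10.50 and 10.46 in Tc1 and 10.40, 10.32 and 10.31 in Tc17. Nfatc2 measured 10.74, 10.73 and 10.71 in Tc1 and 10.62, 10.55 and 10.57 in Tc17. Tc17 arrays of both genes were lower, with differences of −0.21 ± 0.10 and −0.14 ± 0.07 (SE, limma adjusted p = 0.457 and 0.532), and that of Nfatc1 was −0.12 without Tc1 replicate 1. Nfatc3 had a difference of −0.02 (95% interval −0.29 to 0.26) and overlapping arrays.

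Ptprc encodes CD45, the phosphatase that keeps the Src family kinases ready for activation and that can also restrain them. It measured 12.69, 12.78 and 12.75 in Tc1 and 12.24, 12.21 and 12.23 in Tc17, and all Tc17 arrays were lower. The difference was −0.50 ± 0.08 (SE, n = 2, limma adjusted p = 0.0851), a ratio of 1.41-fold, which did not pass. It passed in 7 of 17 other settings, with limma adjusted p from 0.00383 to 0.407 over all of them. Among the 7 was the adjustment over 1 probe set per gene (0.0305), added after the results were seen. They also include a looser threshold of 0.10 on the same p and both settings that fit 6 arrays.

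Genes of the brakes had differences in both directions, and none of the 8 passed limma's test. At an unadjusted p under 0.05 there were 4, against 13.3% of probe sets and 24.5% of bright genes. A list of 8 genes is too short to set against these shares. Cd5 and Cd6, which encode related scavenger-type receptors that damp receptor signalling, are neighbours on chromosome 19 with 0 protein-coding genes between them. Cd5 measured 10.63, 10.82 and 10.75 in Tc1 and 11.24, 11.05 and 11.12 in Tc17. Cd6 measured 10.64, 10.83 and 10.82 in Tc1 and 11.12, 10.89 and 10.95 in Tc17. All Tc17 arrays of both genes were higher, and sample 1 was the lower sample in Tc1 and the higher one in Tc17. The differences were 0.45 ± 0.10 for Cd5 and 0.29 ± 0.11 for Cd6 (SE, n = 2, limma adjusted p = 0.174 and 0.396). That of Cd6 was 0.19 without Tc17 replicate 1 and 0.18 with the technical array averaged with sample 1.

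Cblb, the gene of the ubiquitin ligase CBL-B, measured 12.08, 12.12 and 12.15 in Tc1 and 11.65, 11.66 and 11.79 in Tc17. Its Tc17 arrays were all lower, and the difference of −0.42 ± 0.08 (SE, n = 2, limma adjusted p = 0.126) did not pass. Csk, the kinase that turns off the Src family, and the phosphatase genes Ptpn6 (SHP-1) and Ptpn22 had differences from −0.05 to −0.02 with overlapping arrays. Their 95% intervals lay between −0.33 and 0.23 on the log2 scale.

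Diacylglycerol kinases remove the messenger that RasGRP1 and protein kinase C-theta bind, and the members Dgka and Dgkz differed in sign. Dgka measured 12.17, 12.37 and 12.41 in Tc1 and 12.68, 12.70 and 12.76 in Tc17, all Tc17 arrays being higher. Dgkz measured 10.13, 10.21 and 10.20 in Tc1 and 9.75, 9.93 and 9.91 in Tc17, all Tc17 arrays being lower. The differences were 0.42 ± 0.10 and −0.33 ± 0.09 (SE, n = 2, limma adjusted p = 0.2 and 0.256), and neither passed. Within an array, log2 Dgka minus log2 Dgkz was −0.06, 0.06 and 0.10 in Tc1 and 0.83, 0.67 and 0.75 in Tc17, relative to the biological Tc1 arrays. Given the opposite directions of both genes on all arrays, this contrast had to separate the groups and is no further support. Dgkz was the member with a second probe set, whose difference was −0.22 at levels from 5.61 to 6.02, below the array medians.

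The wider pathway was described with 5 lists of 120 genes that are not members, of which 100 were measured. Gab2 and Pecam1 rose and Dgkh and Rasgrp2 fell in Tc17, 2 of 100 in each direction. Over all probe sets 0.636% were called higher and 0.375% lower, and of the 6740 bright genes 91 were called higher and 80 lower. The 2 counts are near the shares of the bright genes, though some of the wider genes are dimmer than these. Dgkh, another diacylglycerol kinase gene, had the largest difference of all these genes. It measured 10.43, 10.68 and 10.58 in Tc1 and 8.35, 8.28 and 8.37 in Tc17. It fell by 2.19 ± 0.10 on the log2 scale (SE, n = 2, limma adjusted p = 0.00627), a ratio of 4.56-fold. The call ended without Tc17 sample 1 (limma adjusted p = 0.0577) and without moderation (0.378), in a range of 3.24e-05 to 0.378. Dgkd, of the same family, had a difference of −0.41 ± 0.08 (SE, limma adjusted p = 0.134).

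Rasgrp2, an activator of Rap1 related to RasGRP1, measured 9.06, 9.04 and 9.08 in Tc1 and 7.35, 7.77 and 7.86 in Tc17. It fell by 1.48 ± 0.17 on the log2 scale (SE, n = 2, limma adjusted p = 0.0479). That call ended without Tc1 sample 1, Tc1 sample 2 or Tc17 sample 1 (limma adjusted p = 0.199, 0.183 and 0.0848) with trend and robust moderation (0.0516) and without moderation (0.474), in a range of 0.00187 to 0.474. Rasgrp3 and Rasgrp4 had differences of 1.20 ± 0.17 and 0.61 ± 0.16 (SE, limma adjusted p = 0.0724 and 0.242). That of Rasgrp4 was 0.38 without Tc1 replicate 1 and 0.39 as the mean of its probe sets. The Tc1 mean of Rasgrp3 was 5.10, below every array median. Among the Vav exchange factors Vav3 had a difference of −1.08 ± 0.19 (SE, limma adjusted p = 0.118), with a Tc17 mean of 6.04 at the level of the array medians, and Vav2 one of −0.04.

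**Figure D3:**
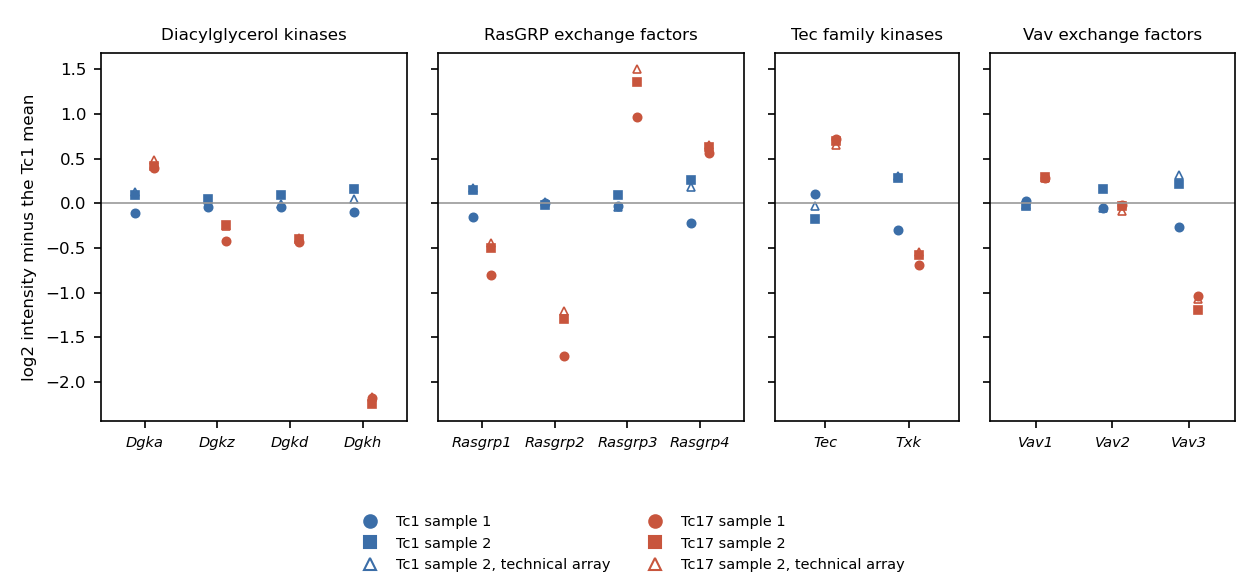
The y axis gives the log2 intensity minus the Tc1 mean of the same gene for 4 gene families, with 1 point per array, Tc1 to the left and Tc17 to the right of each gene. Tc17 points of Dgkh lie around their mean difference of −2.19, those of Rasgrp2 are spread about a mean of −1.48, and those of Dgka, Rasgrp3, Rasgrp4, Tec and Vav1 lie above 0.

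Of 26 proximal kinases, adaptors and cytoskeletal genes Gab2 rose and none fell. Gab2, a scaffold that binds phosphatidylinositol kinases and the phosphatase SHP-2, measured 8.89, 8.91 and 8.90 in Tc1 and 10.54, 10.25 and 10.38 in Tc17. The difference was 1.53 ± 0.10 (SE, n = 2, limma adjusted p = 0.0141), or 2.89-fold. It did not pass without Tc1 sample 1, Tc1 sample 2 or Tc17 sample 1 (limma adjusted p = 0.0969, 0.0996 and 0.0733) or without moderation (0.394), in a range of 1.89e-04 to 0.394. The list's median difference was −0.05, and Evl, an actin regulator, had an uncalled difference of 0.62.

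In the calcium, calcineurin and NFAT list none of 17 genes passed limma's test, and the median was 0.05. At an unadjusted p under 0.05 there were 3, against 13.3% of probe sets and 24.5% of bright genes. Ppp3ca, the catalytic alpha subunit of calcineurin, measured 9.57, 10.15 and 10.03 in Tc1 and 8.27, 8.29 and 8.48 in Tc17. Its difference of −1.50 ± 0.19 (SE, n = 2, limma adjusted p = 0.0607) missed the threshold and passed in 8 of 17 other settings, in a range of 0.00238 to 0.485. The 8 include a looser threshold of 0.10 on the same p and both settings that fit 6 arrays. The other catalytic subunits Ppp3cb and Ppp3cc had differences of −0.10 and −0.04 with overlapping arrays. Nfat5, the NFAT relative that answers osmotic stress and does not need calcineurin, had a difference of 0.78 ± 0.12 (SE, limma adjusted p = 0.0839).

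Among 14 genes of the Ras and ERK cascade Rasgrp2 was the call, with a median of 0.09. None of 17 genes of the NF-kappaB branch passed limma's test (6 at an unadjusted p under 0.05), against 13.3% of probe sets and 24.5% of bright genes. Their median was 0.16, and 13 differences were above 0, against 3369 of 6740 bright genes. Traf6, a ubiquitin ligase that works with MALT1, had a difference of 0.80 ± 0.16, and Tnfaip3, which encodes the ubiquitin-editing inhibitor A20, one of 0.51 ± 0.19 (SE, limma adjusted p = 0.145 and 0.375). The difference of Tnfaip3 was 0.24 without Tc1 replicate 1 and 0.78 without Tc1 replicate 2.

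Among 26 genes of the list named negative regulators, a name not tested gene by gene, Pecam1 rose and Dgkh fell, and the median was −0.06. Pecam1, the inhibitory adhesion receptor CD31, measured 9.85, 9.89 and 9.74 in Tc1 and 10.54, 10.61 and 10.69 in Tc17. Its difference was 0.76 ± 0.08 (SE, n = 2, limma adjusted p = 0.0413). The call ended without any 1 of the 4 samples (limma adjusted p from 0.17 to 0.175), with the technical array left out (0.0539) and without moderation (0.409), in a range of 0.0016 to 0.409. Pag1, the membrane anchor of Csk, had a difference of −1.01 ± 0.15 and Sh3bp2, an adaptor, one of −0.56 ± 0.15 (SE, limma adjusted p = 0.0797 and 0.237).

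**Figure D4:**
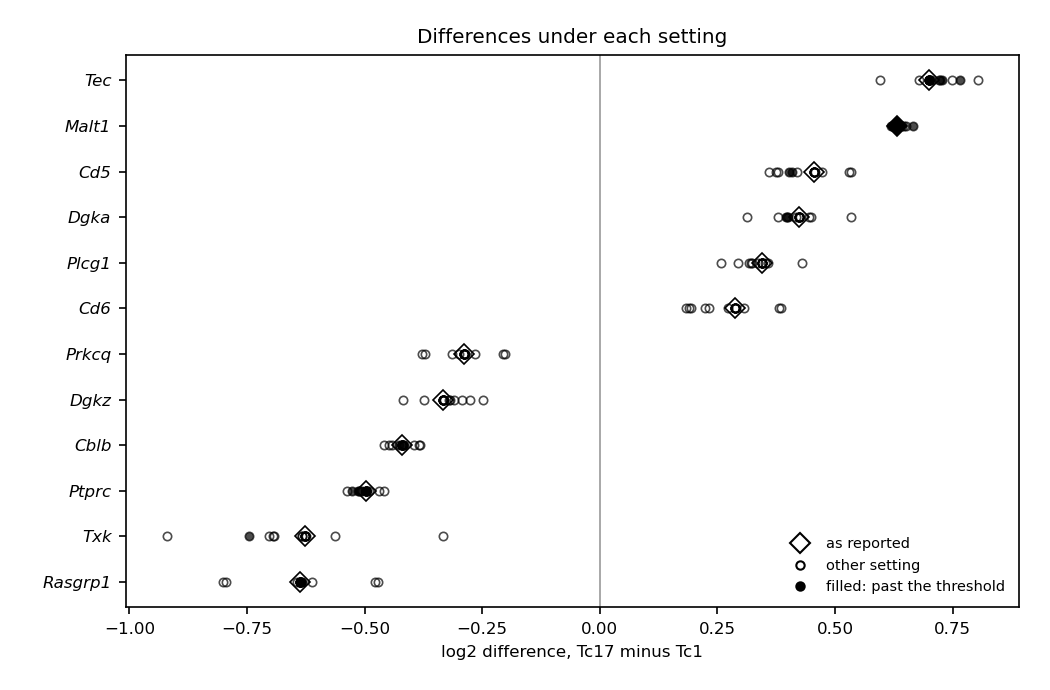
The x axis gives the log2 difference, Tc17 minus Tc1, of the 12 members with the largest differences as reported (diamonds) and under 17 other settings (circles), with filled symbols past the threshold. The values of each gene stay on one side of 0, those of Malt1 between 0.62 and 0.67 and those of Txk between −0.92 and −0.33. Circles of settings that change only the p-value lie at the diamond by construction.

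Besides Tec, Ptprc and Rasgrp1, members that passed in some of the 17 other settings were Cblb (3 settings), Cd5, Dgka and Vav1 (2 each) and Txk (1). Cd5, Dgka and Vav1 passed only with 6 separate arrays and with the biological sample as a random block. The former counts a technical array as a sample of its own. The latter comes near it, at a correlation of 0.101 between arrays of 1 sample. The passes of Tec, Ptprc, Rasgrp1 and Cblb include these 2 settings.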

How the data were processed

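Biotin-labelled total RNA was hybridised to 6 Affymetrix arrays of 1 colour. The deposited values were log2 intensities, and the authors' tools were Partek and RMA, as named without version or role per the submitters' processing notes. RMA corrects background, normalizes arrays by quantiles and summarizes probe sets. The set of arrays normalized as 1 batch and the build are not given in the sources used here. Without detection calls a dim probe set cannot be told from one without signal.

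The technical array was averaged with sample 2 of its group. Tc17 was compared with Tc1 in limma 3.58.1 (R 4.3.3; lmFit, eBayes), p-values being adjusted over all 41345 probe sets by Benjamini-Hochberg, a threshold of 0.05 and no filter. The fit had 2 residual and 2.63 prior degrees of freedom. Names of probe sets came from the annotation of the platform, and Entrez identifiers matched all 34 members to RefSeq, used for names and gene order. The procedure was run on simulated data with changes larger than any difference of the members. That run cannot show how it performs at differences of their size. Figures used matplotlib 3.10.9 and pandas 2.3.3.

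The members and lists were chosen with earlier results of these data known. Array values are given for called members, the CD3 and CD8 chains and the 16 largest differences. In the wider lists called genes are given with array values, and the 2 largest uncalled differences of each list are named. Array values of Ppp3ca, the values of Dgkd, Vav2, Ppp3cb and Ppp3cc, the families and the motifs were chosen after values were seen. The settings tried besides were other uses of the technical array, the replicate number as a block, normalization, level filter, moderation, threshold, samples left out and the probe sets of a gene. The adjustment over 1 probe set per gene was added after the results were seen.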

Additional observations from a re-analysis of the deposited data

How the results depend on the processing

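Of the 34 members 17 kept their sign and their side of the threshold in all 17 other settings, 8 uncalled members passed in at least 1 of them, 8 changed sign in at least 1, and Malt1 lost its call in 7. The sign could change in only part of these settings. The replicate block, level filter, moderation, threshold and adjustment over 1 probe set per gene move the p-values and leave each difference as it was. As reported, 1 member was called higher and 0 lower, and 2 and 2 of the wider genes. With 6 separate arrays the counts were 5 and 3 members and 11 and 12 wider genes, and with the biological sample as a random block 5 and 3, and 11 and 11. Separate arrays count each technical array as a sample. The random block comes near that, at a correlation of 0.101 between arrays of 1 sample. With the technical array averaged with sample 1 the counts were 2 and 4, and 8 and 5, and with it left out 0 and 0, and 1 and 2. Adjustment over 1 probe set per gene and averaging the probe sets of each gene both gave 2 and 1, and 5 and 5. An adjusted p under 0.10 gave 2 and 1, and 5 and 4. Brighter probe sets alone gave 2 and 0, and 2 and 4, trend and robust moderation 1 and 0, and 2 and 1, median centring 0 and 0, and 2 and 2, quantile normalization 1 and 0, and 2 and 2, and no moderation 0 for all. Leaving out each sample gave 0 members in either direction, 0 to 1 wider genes higher and 0 to 2 lower, with 1 degree of freedom fewer and a lone sample assumed to vary like the others. The median of the members ran from −0.05 to −0.0092 over samples left out and was −0.01 with quantile normalization.

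With the replicate block 2 members were called higher and 2 lower, and 6 and 6 wider genes. The numbers pair the samples only by name: sample 2 minus sample 1 correlated between groups at 0.313 across probe sets, with 2 numbers in all, and the block raised the probe sets called from 418 to 1535.

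All sign changes were in members that never passed. With the technical array averaged with sample 1, differences were 0.0058 for Zap70, −0.045 for Grap2, 0.013 for Grb2, 0.0049 for Csk and 0.061 for Sh2d2a. Left out, they were −0.015 for Grap2 and 0.038 for Grb2. With 6 separate arrays and with the random block Grap2 had −0.024 and −0.021 and Sh2d2a 0.028 and 0.022. Quantile normalization gave 0.0059 for Nfatc3 and 0.012 for Sh2d2a. Over samples left out the ranges were −0.13 to 0.073 for Zap70, −0.14 to 0.030 for Lcp2, −0.056 to 0.058 for Grap2, −0.050 to 0.021 for Grb2, −0.13 to 0.094 for Nfatc3, −0.17 to 0.071 for Csk, −0.057 to 0.017 for Ptpn22 and −0.15 to 0.12 for Sh2d2a. The causes were not tested.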

Other observations

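In 19 of the 34 members sample 2 lay above sample 1 in both groups and in 5 it lay below in both. Among the 6740 genes at least as bright as the dimmest member the counts were 2384 above and 2485 below. The members with the widest gap between samples were Txk in Tc1 (0.59) and Rasgrp1 in both groups.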
